A study of Mus musculus with 6 samples.

Results

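The 10 genes described here encode enzymes and adaptors that switch mitogen-activated protein kinases (MAPKs) off again: the phosphatases *Dusp1*, *Dusp2*, *Dusp4*, *Dusp5*, *Dusp6*, *Dusp8*, *Dusp10* and *Dusp16*, and the Ras pathway inhibitors *Spry2* and *Spred1*. They were found by their symbols, and all 10 were present among the 25166 genes of the deposited table. The table holds RNA-seq of freshly isolated muscle stem cells (MuSCs), the PAX7-positive cells from which skeletal muscle regenerates, in 3 Sirt6mKO and 3 control (Ctrl) libraries. The question put to these genes was whether their transcript levels differed between MuSCs lacking the deacetylase SIRT6 and control MuSCs.

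Sirt6mKO mice were Pax7-ICNCre pos *Sirt6* fl/fl animals, in which a constitutively active Cre recombinase made from the *Pax7* promoter removes the floxed exons 4 to 6 of *Sirt6*. Control animals are called wild type in the labels and Cre-negative *Sirt6* fl/fl in the study's supplementary legend. Both groups were C57BL/6 with no treatment given, and by the legend the animals were males of 12 weeks. The cells were sorted by FACS on surface markers of MuSCs or a reporter, and each library was made from 100 to 200 cells or 1 to 5 ng of RNA. The *Pax7* promoter is known to be active already in muscle progenitors of the embryo, so the deletion is not limited to adult MuSCs. The study's statistics section calls its RNA-seq replicates biological but gives fewer per group than were deposited, whereas the supplementary legend gives the deposited number. The labels tie no library to a mouse, so p-values measure the spread between these samples, part of which may be technical.

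MAPK cascades carry signals from growth factor receptors and from stress to the nucleus. ERK, p38 and JNK are active only while both a threonine and a tyrosine of their activation loop are phosphorylated, and dual-specificity phosphatases (DUSPs, also called MAPK phosphatases) remove both phosphates. Many of the inhibitor genes are themselves switched on by the cascade they inhibit, which makes them negative feedback genes and common readouts of pathway activity. In MuSCs, fibroblast growth factor signalling, p38 and the Sprouty inhibitors are known for their part in the balance between quiescence and activation.

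Of the 9 inhibitor genes with enough signal to be tested, none passed the threshold for a difference between Sirt6mKO and control MuSCs. *Dusp1* was 1.22 times as high in Sirt6mKO libraries and *Dusp16* was 0.84 times as high, and in both genes the groups did not overlap, but neither passed after adjustment over all tested genes. *Dusp5* had the widest difference, at a log2 fold change of 0.84, with overlapping groups. *Dusp4*, *Dusp6*, *Dusp8*, *Dusp10*, *Spry2* and *Spred1* lay between -0.21 and 0.05 on the log2 scale. In the same libraries 10 of 30 tested genes listed as transcriptional targets of ERK rose, where 2.64% of all tested genes were called higher. *Egr1*, *Fos*, *Jun* and *Junb* were among the 10. That list was chosen with earlier results of these data known, so its count is a description with no test. Values are given below as signal. The deposited values carry no named unit, and from their pattern they were taken as reads of a gene divided by a size factor of its library and rounded, so every read count below is an estimate that rests on this reading. Fold changes are differences of log2(signal + 1), fitted with limma-trend across all genes whose signal averaged at least 5, and p-values were adjusted by Benjamini-Hochberg over all 14227 of them.

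The promoters of 3 members are shown because they hold the DNA elements best known from inducible genes: the cAMP response element (CRE), bound by CREB and ATF factors, and the CArG box at the heart of the serum response element, bound by SRF. Each window runs from 250 bases before to 50 bases after the transcription start in RefSeq, in the build GRCm38.p6, 5′ to 3′ along the gene's own strand. Capitals mark CRE, CRE core and CArG matches. The *Dusp1* window is chr17:26508423-26508722 (minus strand), that of *Dusp5* is chr19:53528895-53529194 (plus strand) and that of *Dusp8* is chr7:142095235-142095534 (minus strand).
Dusp1: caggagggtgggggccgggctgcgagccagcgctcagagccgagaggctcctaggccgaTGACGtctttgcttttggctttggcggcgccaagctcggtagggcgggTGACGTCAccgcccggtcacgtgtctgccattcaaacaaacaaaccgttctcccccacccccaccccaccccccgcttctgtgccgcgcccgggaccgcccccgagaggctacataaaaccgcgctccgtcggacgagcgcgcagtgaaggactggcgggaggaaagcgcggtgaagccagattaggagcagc
Dusp5: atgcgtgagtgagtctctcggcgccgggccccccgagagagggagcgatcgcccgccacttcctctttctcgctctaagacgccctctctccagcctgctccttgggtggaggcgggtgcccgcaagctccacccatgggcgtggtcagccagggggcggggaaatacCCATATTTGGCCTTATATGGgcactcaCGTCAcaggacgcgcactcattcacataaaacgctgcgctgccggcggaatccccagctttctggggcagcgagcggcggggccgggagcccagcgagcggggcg
Dusp8: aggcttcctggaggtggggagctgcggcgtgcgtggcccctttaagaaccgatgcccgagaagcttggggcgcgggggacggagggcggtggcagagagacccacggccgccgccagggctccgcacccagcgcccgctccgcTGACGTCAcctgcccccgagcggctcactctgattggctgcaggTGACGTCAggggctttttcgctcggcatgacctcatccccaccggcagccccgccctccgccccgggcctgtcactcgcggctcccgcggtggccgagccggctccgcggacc

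Positions in these windows count from 0 at the annotated start. The CRE, TGACGTCA, occurred once in *Dusp1*, from -143 to -136, and at 2 places in *Dusp8*, from -107 to -100 and from -63 to -56. In all 32851 mouse windows of the same length, 1.8% held it on either strand. *Dusp1* held a further CRE core, TGACG, from -191 to -187. The core, which every CRE contains, was found in 5 of the 9 member windows (*Dusp1*, *Dusp2*, *Dusp5*, *Dusp8* and *Dusp16*) and in 20.8% of all windows. *Dusp5* held 2 CArG boxes side by side, CCATATTTGG from -82 to -73 and CCTTATATGG from -72 to -63, and CArG was found in 1.6% of all windows. *Dusp5* thus carried an element of serum response genes and *Dusp1* and *Dusp8* one of cAMP response genes, as letters in the sequence only.

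The GC box GGGCGG, read by SP and KLF factors, was found in 7 of the 9 windows and in 35.7% of all windows. Neither *Dusp6* nor *Spry2* held it. The other motifs searched on both strands were AP-1 (TGANTCA, in 7.8% of all windows), ETS (CCGGAAGT, 3.9%), EGR (GCGTGGGCG, 0.6%), the TATA box (TATAAA, 13.6%), the E-box of MyoD (CAGCTG, 16.3%) and NF-kB by its consensus (4.5%). None of these exact letters occurred in a member window. The windows of the members were rich in G and C, at 57.3% in *Dusp6* to 73.3% in *Dusp8*, against a median of 52.7% over all windows. *Dusp4* had no window in the table used.

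In the GRCm38 annotation all 10 genes were protein-coding. *Dusp1* (ENSMUSG00000024190) spans chr17:26505590-26562128 on the minus strand, a span of 56.5 kb, and its RefSeq promoter window lies inside that span. *Dusp2* (ENSMUSG00000027368) lies at chr2:127336159-127338376 and *Spred1* (ENSMUSG00000027351) at chr2:117121374-117182279, both on the plus strand. *Dusp4* (ENSMUSG00000031530) occupies chr8:34807297-34819894, *Dusp5* (ENSMUSG00000034765) chr19:53529109-53542431, *Dusp6* (ENSMUSG00000019960) chr10:99263231-99267489 and *Dusp10* (ENSMUSG00000039384) chr1:184013302-184075636, all on the plus strand. On the minus strand are *Dusp8* (ENSMUSG00000037887) at chr7:142079490-142095843, *Dusp16* (ENSMUSG00000030203) at chr6:134715468-134792625 and *Spry2* (ENSMUSG00000022114) at chr14:105891947-105896819. The span of *Dusp1* overlaps *Ergic1* and *Gm8225* on the other strand and the annotated genes *AC122252.4* and *AC122252.1* on its own strand. *Dusp5*, *Dusp8*, *Dusp10* and *Dusp16* each overlap 1 gene on the other strand, and *Dusp2*, *Dusp4*, *Dusp6*, *Spry2* and *Spred1* overlap none. Whether strand was used in counting is not given in the sources used here, so reads of the overlapping pairs may not be told apart.

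The total signal was 2272307 to 2369973 per library, and behind it stood an estimated 1266987 to 3209964 reads, fewest in Ctrl replicate 3. A single read was thus worth a signal of 0.729 in Ctrl replicate 2 and 1.79 in Ctrl replicate 3. *Sirt6* itself read 19, 20 and 13 in Sirt6mKO replicates 1 to 3, against 18, 17 and 20 among the controls. The fitted log2 fold change of -0.10 (SE 0.29, adjusted p = 0.91) changed sign to 0.09 without Sirt6mKO replicate 3. A value for the whole gene includes exons outside the floxed part, so it does not check the deletion. Among 10 MuSC markers *Cd34* rose and *Pax7*, which marks MuSCs, fell, at 1841, 2307 and 1810 in Sirt6mKO and 4066, 3449 and 3150 in control libraries. Of all tested genes 2.64% were called higher and 1.88% lower. In bulk samples, fewer cells of a type and less RNA per cell cannot be told apart. Only the Sirt6mKO animals carried the Cre driver, so its presence and the loss of *Sirt6* cannot be told apart either, in *Pax7* or any other gene.

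Compared per kb of exon, the inhibitors fell into 3 tiers whose ranges over the 6 libraries did not overlap. *Dusp1*, *Spred1* and *Spry2* were highest. Their signal per kb was 118 ± 16.9 (SD, n = 6), 90.1 ± 9.27 and 77.7 ± 9.43, which placed them at percentiles 95.7, 93.5 and 92.0 of the tested genes. Each of these 3 overlapped with its neighbour in the order. The middle tier ran from *Dusp16*, *Dusp6*, *Dusp10* and *Dusp8*, at 29.9, 21.2, 16.3 and 13.5 per kb, down to *Dusp4* and *Dusp5* at 8.39 and 7.08, where the median of all tested genes was 14.97. Neighbours overlapped here too, except that the lowest *Dusp8* value, 11.9, lay above the highest *Dusp4* value, 10.6. *Dusp2* was last at 0.58, with no library above 1.5.

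**Figure D1:**
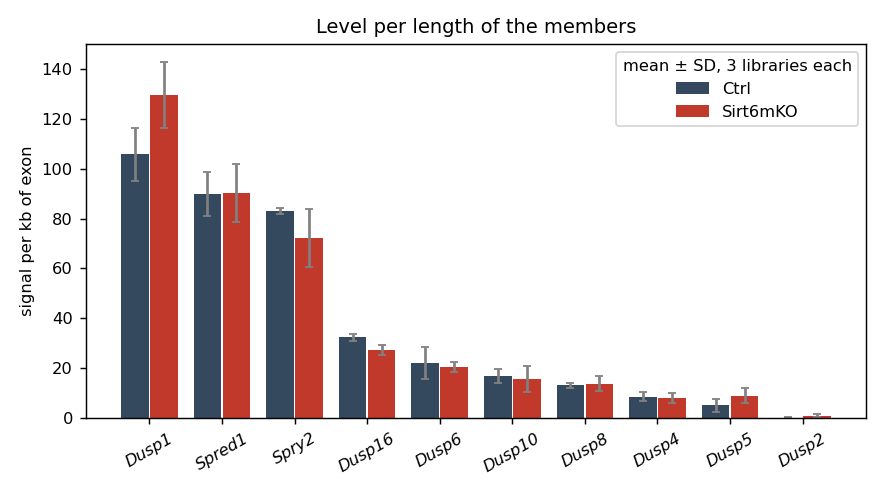
Signal per kb of exon of the 10 genes, as bars of the mean with the SD over 3 Ctrl and 3 Sirt6mKO libraries. Dusp1, Spred1 and Spry2 stand between 72.4 and 130 in both groups, and every other gene lies at 32.4 or below.

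*Dusp1*, *Dusp2*, *Dusp4* and *Dusp5* encode the inducible phosphatases of the nucleus. *Dusp1* (MKP-1), an immediate early gene whose product inactivates p38 and JNK as well as ERK, read 379, 459 and 450 in Sirt6mKO replicates 1 to 3. The controls read 366, 310 and 375. Every Sirt6mKO library was thus higher than every control library, by a narrow margin between 379 and 375. The means were 429 ± 43.8 (SD, n = 3) and 350 ± 35.2, and the log2 fold change was 0.29 (SE 0.12, 95% interval 0.03 to 0.56). With an unadjusted p of 0.034 and an adjusted p of 0.23 from limma-trend, the difference did not pass. The adjusted p stayed between 0.20 and 0.49 under the 18 alternative settings, all of which left *Dusp1* higher in Sirt6mKO.

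*Dusp5*, a phosphatase specific for ERK that also anchors it in the nucleus, read 18, 18 and 31 in Sirt6mKO and 7, 11 and 20 in control libraries. These signals rest on 6 to 33 reads per library. Sirt6mKO replicate 3 and Ctrl replicate 3 were the highest of their groups, and the groups overlapped through the latter. The log2 fold change was 0.84 (SE 0.39, 95% interval -0.01 to 1.69, adjusted p = 0.28). Leaving out Ctrl replicate 3 gave 1.21 with an adjusted p of 0.11, the lowest of any member under any setting, and leaving out Ctrl replicate 1 gave 0.51. The size of the difference in *Dusp5* was therefore poorly determined at this depth, and it is the only member whose interval reached past a 2-fold change.

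*Dusp4* (MKP-2), which acts on ERK and JNK in the nucleus, gave 17, 22 and 28 in Sirt6mKO and 23, 19 and 29 in control libraries. The libraries were interleaved, and the log2 fold change of -0.09 had a 95% interval from -0.71 to 0.53 (adjusted p = 0.92). *Dusp2* (PAC1), best known from activated lymphocytes, was close to absent. It had 4, 1 and 2 reads in Sirt6mKO and 0, 1 and 0 reads in control libraries. A count of 0 allows up to 3 reads, and the mean signal was under the minimum of 5, so *Dusp2* was not tested and no fold change is given. An exact two-sided permutation test of its signal gave p = 0.2, where 0.1 is the smallest value that 3 libraries against 3 can reach.

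*Dusp6* (MKP-3) encodes the ERK-selective phosphatase of the cytoplasm and is the classic feedback target of FGF signalling. It read 61, 59 and 71 in Sirt6mKO and 90, 49 and 68 in control libraries. Ctrl replicates 1 and 2 bracketed all other libraries, and the SD of the controls, 20.5, was larger than that of the Sirt6mKO libraries, 6.43. The log2 fold change was -0.08 (SE 0.22, 95% interval -0.55 to 0.40, adjusted p = 0.91), and it ranged from -0.30 without Ctrl replicate 2 to 0.13 without Ctrl replicate 1. The sign of the difference in *Dusp6* thus rested on single control libraries.

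*Dusp8*, *Dusp10* and *Dusp16* encode the phosphatases that prefer the stress kinases p38 and JNK over ERK. *Dusp16* (MKP-7), which shuttles between nucleus and cytoplasm and acts above all on JNK, read 205, 204 and 232 in Sirt6mKO and 252, 265 and 242 in control libraries. All Sirt6mKO libraries lay below all controls. The means were 214 ± 15.9 and 253 ± 11.5 (SD, n = 3 each), with a log2 fold change of -0.24 (SE 0.12, 95% interval -0.50 to 0.01). At an unadjusted p of 0.058 and an adjusted p of 0.30 from limma-trend this did not pass, and under the 18 alternatives the value stayed between -0.30 and -0.21 without reaching an adjusted p below 0.25.

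*Dusp8* gave 84, 58 and 59 in Sirt6mKO and 58, 66 and 68 in control libraries. Sirt6mKO replicate 1 stood above the rest, and without it the log2 fold change of 0.05 (95% interval -0.37 to 0.46, adjusted p = 0.94) became -0.12. *Dusp10* (MKP-5) read 50, 63 and 31 in Sirt6mKO and 42, 52 and 59 in control libraries. Here Sirt6mKO replicate 3 was the lowest of all 6, and leaving it out moved the log2 fold change from -0.13 (95% interval -0.69 to 0.43, adjusted p = 0.85) to 0.15. Both genes overlapped widely between the groups, and neither difference had a stable sign.

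*Spry2* and *Spred1* act upstream of the kinases. Sprouty proteins block the step from receptor tyrosine kinases to Ras, and Spred proteins bring the Ras-inactivating protein neurofibromin to the membrane. *Spry2* read 129, 177 and 147 in Sirt6mKO and 172, 176 and 172 in control libraries. The controls were nearly equal, with an SD of 2.31, whereas the Sirt6mKO libraries had an SD of 24.2 and 2 of the 3 lay below the controls. The log2 fold change was -0.21 (SE 0.14, 95% interval -0.51 to 0.09, adjusted p = 0.48). Without Sirt6mKO replicate 2 it was -0.33, with an adjusted p of 0.34.

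*Spred1*, with 302 to 945 reads per library the best-counted member, read 565, 705 and 569 in Sirt6mKO and 649, 638 and 541 in control libraries. Its means of 613 ± 79.7 and 609 ± 59.4 (SD, n = 3 each) differed by a log2 fold change of 0.01 (SE 0.12, 95% interval -0.26 to 0.27, adjusted p = 0.99). In fold terms the interval ran from 0.83 to 1.21. Of all members *Spred1* was the one with the smallest difference, and under scaling by the upper quartile, by library size alone or on log2 CPM the value was -0.01.

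**Figure D2:**
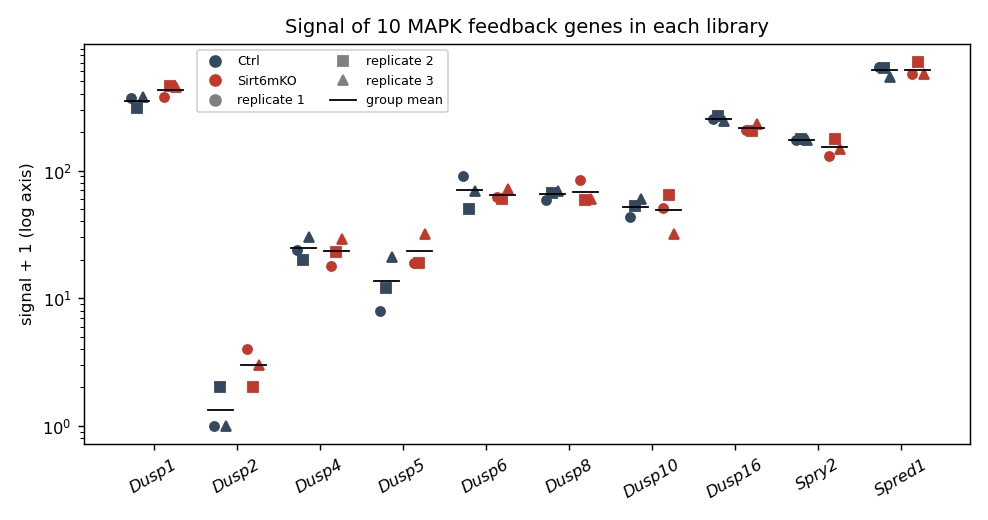
Signal + 1 of each of the 10 genes in the 3 Ctrl and 3 Sirt6mKO libraries, side by side on a shared log axis, with points for libraries and a line for the group mean. The groups stand apart only in Dusp1, higher in Sirt6mKO, and Dusp16, lower in Sirt6mKO.

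Over the 9 tested members, 0 were called at an adjusted p of at most 0.05, where 4.52% of all tested genes were called, and 0 were called with a 2-fold change in addition, where 2.59% were. A single member, *Dusp1*, had an unadjusted p under 0.05, against 18.1% of all tested genes. With limma voom on the recovered reads the members at an unadjusted p under 0.05 were *Dusp1*, *Dusp5* and *Dusp16*, and again 0 were called. The groups stood apart in 2 of the 9, *Dusp1* and *Dusp16*, which is near the 21.2% of all tested genes. Of the differences 4 were above and 5 below 0, with a median of -0.08 where all tested genes had a median of 0.00.

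How large a change could have been missed is given by the intervals. In 8 of the 9 tested members the 95% interval lay within a 2-fold change in either direction, as it did in 66.2% of all tested genes. The tightest belonged to *Dusp16*, *Dusp1* and *Spred1*, whose intervals ended at folds of 0.71 and 1.01, 1.02 and 1.47, and 0.83 and 1.21. Those of *Dusp4* (0.61 to 1.45) and *Dusp10* (0.62 to 1.35) were wider, and that of *Dusp5* reached a 3.22-fold rise. A missed threshold does not show that these genes were equal in both groups. With libraries left out in turn, *Dusp4*, *Dusp6*, *Dusp8*, *Dusp10* and *Spred1* took either sign, and *Dusp1*, *Dusp5*, *Dusp16* and *Spry2* kept theirs.

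**Figure D3:**
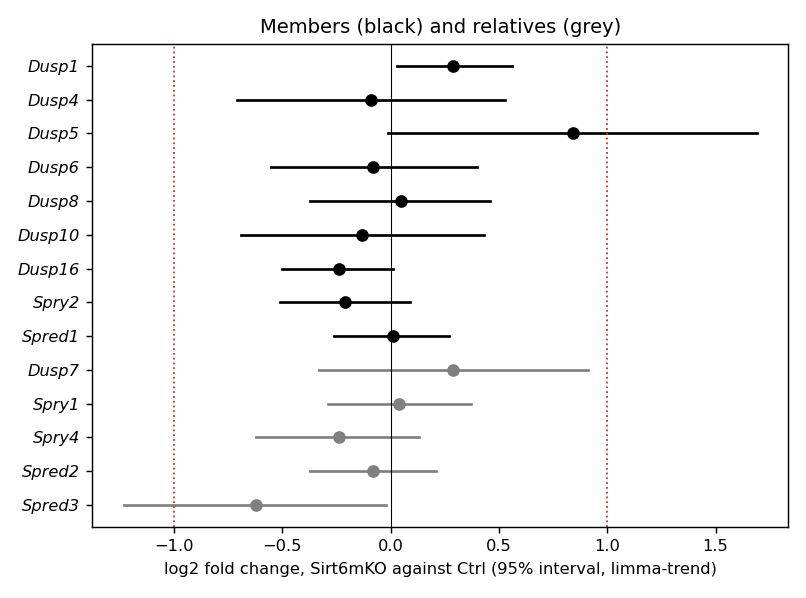
Log2 fold changes of Sirt6mKO against Ctrl with 95% intervals from limma-trend, for the 9 tested members in black and 5 tested relatives in grey, with dotted lines at a 2-fold change. All black intervals but that of Dusp5 lie between the dotted lines, and that of Dusp1 lies above 0.

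The closest relatives of the members were read the same way. *Dusp7* (an ERK-selective cytoplasmic phosphatase like *Dusp6*), *Spry1*, *Spry4*, *Spred2* and *Spred3* were tested and 0 of the 5 were called, against 4.52% of all tested genes. An unadjusted p under 0.05 (limma-trend) and separate groups were each seen in 1, *Spred3*. Among all tested genes these shares were 18.1% and 21.2%, so 1 of 5 was near both. *Spred3* read 16, 18 and 17 in Sirt6mKO and 23, 23 and 36 in control libraries, with separate groups and a log2 fold change of -0.62 (SE 0.28, adjusted p = 0.26). *Dusp9*, the third gene of the *Dusp6* type, had 1 read in all 6 libraries together and was not tested. *Spry1*, a Sprouty gene known for its part in the return of MuSCs to quiescence, had the highest level of the family at 439 per kb, ahead of every member. It read 1141, 1582 and 1163 in Sirt6mKO and 1241, 1483 and 1047 in control libraries, with a log2 fold change of 0.04 (95% interval -0.29 to 0.37, adjusted p = 0.93). *Dusp7* (0.29), *Spry4* (-0.24) and *Spred2* (-0.08) likewise had overlapping groups.

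The atypical DUSPs, small phosphatases that lack the MAPK-binding domain, numbered 11 tested genes with 0 called by limma-trend. An unadjusted p under 0.05 was seen in 4 of them, and in 18.1% of all tested genes. *Dusp26*, at 11, 13 and 13 in Sirt6mKO against 4, 4 and 4 in control libraries, came nearest at an adjusted p of 0.061. Its control values rest on an estimated 3, 5 and 2 reads. *Dusp14*, at 5, 6 and 4 against 9, 15 and 22, followed at 0.091. *Dusp11* (-0.29) and *Dusp3* (-0.22) were the most abundant and were not called. Among 18 other negative regulators of receptor tyrosine kinases and Ras 1 was called, a share of 5.6% and near the 4.52% of all tested genes. This was *Rasal2*, which encodes a Ras GTPase-activating protein and fell by 0.80 on the log2 scale (adjusted p = 0.0069), at 96, 113 and 88 against 180, 160 and 179, and at 0.052 without Sirt6mKO replicate 1 its adjusted p no longer passed. *Lrig1* (0.07) and *Nf1* (0.03), the most abundant of that list, were not called.

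Upstream of the phosphatases, 1 of 21 tested receptors and adaptors and 2 of 21 tested genes of the cascade from Ras to ERK were called. These shares of 4.8% and 9.5% stand beside 4.52% of all tested genes, so only the called share of the receptor list was near the background. An unadjusted p under 0.05 (limma-trend) was seen in 9 of the receptors and adaptors and in 4 of the cascade genes. Among all tested genes that share was 18.1%. The called receptor was *Pdgfra*, which rose by a log2 fold change of 2.16 (adjusted p = 0.027) at 14, 22 and 38 against 9, 4 and 2, and which is also a marker of fibroblasts. *Fgfr1* (-0.28, adjusted p = 0.20) and *Fgfr4* (-0.05), the most abundant receptors of the list, were not called. The called cascade genes were the scaffolds *Ksr2* and *Ksr1*, which hold RAF, MEK and ERK together. *Ksr2* fell by 2.77 (adjusted p = 0.0013), at 12, 7 and 10 against 36, 97 and 99, and *Ksr1* fell by 0.66 (adjusted p = 0.030), at 367, 374 and 261 against 615, 467 and 495. *Ksr2* stayed called whichever library was left out, whereas *Ksr1* (adjusted p up to 0.10) lost its call without any of them but Ctrl replicate 2, and *Pdgfra* (up to 0.13) without any but Ctrl replicate 1.

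In the p38 and JNK cascade 2 of 21 tested genes (9.5%) were called, both higher, where 2.64% of all tested genes were called higher. *Gadd45g*, whose product activates a kinase upstream of p38 and JNK, read 72, 79 and 45 in Sirt6mKO and 34, 23 and 16 in control libraries (log2 fold change 1.41, adjusted p = 0.018). *Mapk12*, which encodes the muscle-enriched p38 gamma, read 47, 28 and 31 against 16, 10 and 14 (1.33, adjusted p = 0.026). Both calls rested on single libraries: *Gadd45g* reached an adjusted p of 0.13 without Sirt6mKO replicate 1, 0.12 without Sirt6mKO replicate 2 and 0.060 without Ctrl replicate 2, and *Mapk12* 0.17, 0.072, 0.064 and 0.083 without Sirt6mKO replicates 1, 2 and 3 and Ctrl replicate 2. *Map3k7* (0.21) and *Map3k5* (0.09) were the most abundant and were not called. The phosphatase genes that act on p38 or JNK, *Dusp1*, *Dusp4*, *Dusp8*, *Dusp10* and *Dusp16*, lay between -0.24 and 0.29 in the same libraries.

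The list of transcriptional targets of ERK, a class that many feedback inhibitors belong to, held more called genes than any other pathway list examined. Its genes were listed by name, and the activity of ERK was not measured. Of 30 tested genes 10 rose, against 2.64% of all tested genes, and 2 fell, against 1.88%, and the median log2 fold change was 0.62. This list was chosen with earlier results of these data known, so its count is a description with no test. The genes that rose were *Junb*, *Klf4*, *Arc*, *Jun*, *Egr1*, *Fos*, *Ier3*, *Klf6*, *Egr2* and *Ier2*, most of them immediate early transcription factors. *Egr1* read 3897, 4646 and 3912 in Sirt6mKO and 2788, 2446 and 2026 in control libraries, with a log2 fold change of 0.79 (adjusted p = 0.0062). *Jun* rose by 0.80, *Fos* by 0.75 and *Junb* by 0.85 on the same scale. Those that fell were *Ccnd1*, which encodes cyclin D1 (-0.84, adjusted p = 0.033), and the ETS factor *Etv5* (-0.58, adjusted p = 0.032), a target of FGF signalling as *Dusp6* and *Spry2* are. Without Ctrl replicate 2, 15 of the list rose, and without any 1 of the Sirt6mKO libraries 6 did. *Egr1*, *Fos*, *Jun*, *Junb*, *Klf4* and *Arc* were called whichever library was left out, whereas *Egr2*, *Ier2*, *Ier3*, *Klf6*, *Ccnd1* and *Etv5* each lost the call without 4 or 5 of the 6 libraries in turn, at adjusted p of at most 0.20.

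**Figure D4:**
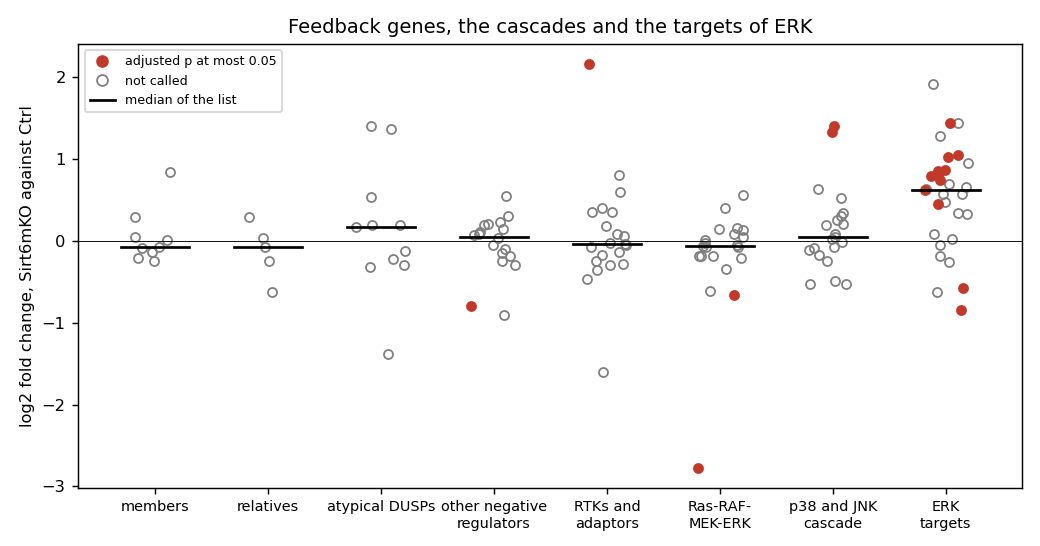
Log2 fold changes (Sirt6mKO against Ctrl) of the tested genes of each list, 1 point per gene, with filled points for genes called at an adjusted p of at most 0.05. The ERK targets hold 12 called genes, 10 of them higher, and the members hold 0. The lists were chosen with earlier results of these data known.

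Since *Dusp1* is itself an immediate early gene, it was set against *Egr1*, *Fos*, *Jun* and *Junb* within each library, as were *Dusp6* and *Spry2*. The quantity is the log2 ratio of the signal of a member to that of the early gene, with nothing added, so any factor common to a library drops out. The early genes were picked after they had been seen to rise and the members not to pass, which fixes the direction of these differences, so they are a description with no test. Against *Junb*, *Dusp1* stood at -1.50, -1.35 and -1.41 in Sirt6mKO and at -0.66, -1.26 and -0.65 in control libraries. The group means of *Dusp1* differed by -0.46 (*Fos*) to -0.56 (*Junb*), those of *Dusp6* by -0.83 to -0.93 and those of *Spry2* by -0.96 to -1.07 against the same pair of genes.

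**Figure D5:**
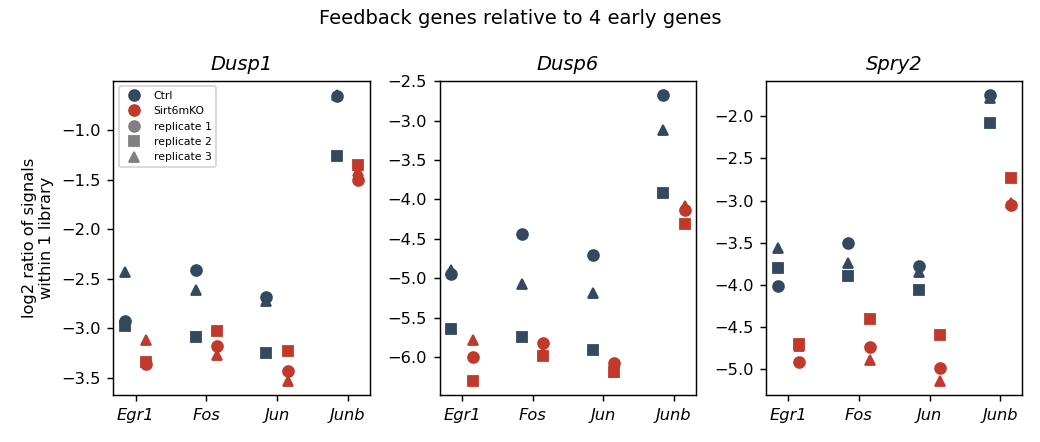
Log2 ratio of the signal of Dusp1, Dusp6 or Spry2 to that of each of Egr1, Fos, Jun and Junb, 1 point per library. Against Junb, Dusp1 lies at -1.50 to -1.35 in Sirt6mKO and at -1.26 to -0.65 in Ctrl libraries, a direction that the choice of early genes fixes.

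Some markers of other cells passed the threshold and most did not, and they are given as values beside these results. The study's sort removed cells positive for Sca1, CD45 or CD31, and *Ly6a*, the gene of Sca1, had a signal of 2 or less in every library. Of 7 tested fibroblast markers 3 rose, *Col1a2*, *Col1a1* and *Pdgfra*, where 2.64% of all tested genes were called higher. All 7 had a log2 fold change above 0, with a median of 1.39. An unadjusted p under 0.05 (limma-trend) was seen in 6 of them and in 18.1% of all tested genes. The summed signal of the list overlapped, at 9462 to 11559 in Sirt6mKO and 6553 to 10218 in control libraries. *Col3a1*, the most abundant of the list, was not called (log2 fold change 0.06, adjusted p = 0.90 from limma-trend). *Col1a2* alone read 782, 1299 and 1162 against 173, 63 and 65. Of 11 tested myofiber markers 3 rose, *Acta1*, *Actn3* and *Mylpf*, beside 2.64% of all tested genes, with sums of 941 to 2232 against 673 to 892. Of the 11, 10 lay above 0 and 1 below, with a median log2 fold change of 1.13. In 8 the unadjusted p (limma-trend) was under 0.05, against 18.1% of all tested genes. *Acta1* read 548, 656 and 143 against 118, 131 and 93, and *Mylpf* 49, 48 and 14 against 6, 5 and 9. Both were thus highest in Sirt6mKO replicates 1 and 2, whereas *Actn3* read 712, 628 and 580 against 326, 534 and 330. Of 5 tested genes of myogenic commitment, *Myf6* rose and *Myod1* fell, where 4.52% of all tested genes were called in either direction. The MuSC list of 10 genes summed to 14727 to 16295 against 14902 to 16803, and 1 rose and 1 fell, beside the same 4.52%. An unadjusted p under 0.05 (limma-trend) was seen in 4 of the 5 commitment genes and 5 of the 10 MuSC genes. Of all tested genes 18.1% reached it.

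Of the endothelial list only *Pecam1* was tested (22, 27 and 24 against 11, 4 and 29, not called), and *Cdh5* and *Kdr*, which define that cell type, had signals of 7 or less in every library. No gene of the immune, mural or Schwann lists was called, out of 2, 5 and 3 tested, and only 3 of the 8 immune markers listed were analysed. Of 4 tested tenocyte markers 0 were called by limma-trend and 2 had an unadjusted p under 0.05, against 4.52% and 18.1% of all tested genes. Their summed signal was 49 to 564 in Sirt6mKO and 38 to 54 in control libraries. *Thbs4* read 14, 508 and 191 against 15, 16 and 7, and *Tnmd* 1, 19 and 13 against 1, 0 and 0, so both were high in Sirt6mKO replicates 2 and 3 only. The member genes are used in many cell types, and the part of these other cells in the values of *Dusp1*, *Dusp5* or *Dusp16* was not tested.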

How the data were processed

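RNA-seq of freshly isolated MuSCs was analysed for 3 Sirt6mKO and 3 control samples, 1 library each, grouped by their labels. The submitters' processing notes list FastQC, Trimmomatic 0.39, STAR 2.7.10a, Picard 2.25.5, featureCounts 2.0.2 and DESeq2 1.30.1, whereas the methods of the paper name Reaper for trimming. For library preparation the methods name RiboMinus and Ion Total RNA-Seq, and the labels RiboGone and SMARTer stranded, with single-end reads of 75 bp. The statistics section and the deposit differ in the number of replicates, and the supplementary legend gives the deposited number. The deposited values carry no named unit. They are whole numbers and were taken as a signal of reads divided by a size factor and rounded by the authors, which is an inference from the values. Factors of 0.558 to 1.372 were estimated from how often each low value occurs. In Ctrl replicates 1 and 3, 11 and 27 of the values from 1 to 60 never occur, as such a division leaves them. The other 4 libraries have no such gaps, so their factors rest on uneven frequencies alone and are less certain. By these estimates 1266987 to 3209964 reads lie behind a library. Intervals and floors from reads cover counting error only.

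Since the values are already scaled, limma-trend (limma 3.58.1, R 4.3.3) was run on log2(signal + 1) of the 14227 genes with a mean of at least 5, without covariates. Genes were called where the p adjusted by Benjamini-Hochberg was 0.05 or less, and also with a 2-fold change. The procedure was tested on simulated data. Tables and plots used Python 3.11.15, numpy 2.4.6, pandas 2.3.3 and matplotlib 3.10.9. The gene identifiers of 99.7% of rows were found in the GRCm38 annotation, and promoter windows came from RefSeq.

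Named genes are all members and relatives, Sirt6, and of each further list those called (up to 5 by smallest p) and the 2 most abundant, and of marker lists the first gene and those called; others given, such as Dusp14 and Dusp26, were chosen after their values were seen. The members and lists were chosen with earlier results of these data known. Alternatives changed 1 choice at a time: scaling, filter, pseudocount, robust estimation, a replicate block, limma voom on recovered reads, and leaving out each library. Spry3, Dusp21, Emcn and 5 of the 8 immune markers (Ptprc, Itgam, Cd3e, Adgre1 and C1qa) were not analysed here.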

Additional observations from a re-analysis of the deposited data

How the results depend on the processing

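No member and no relative was called under any of the 18 alternatives. The median member log2 fold change lay between -0.11 and 0.06 without single libraries. The numbers of called genes depended on the setting. Without single libraries they ranged from 234 to 683 for all genes (main value 643), 6 to 15 for the ERK targets, 0 to 4 for receptors and adaptors, 1 to 2 for the Ras to ERK cascade, 0 to 2 for the p38 and JNK cascade, 0 to 1 for the atypical DUSPs and 0 to 1 for the other negative regulators, and the log2 fold change of Sirt6 ranged from -0.21 to 0.09. The sign changed for Dusp4 (-0.26 to 0.09), Dusp6 (-0.30 to 0.13), Dusp8 (-0.12 to 0.14), Dusp10 (-0.35 to 0.15), Spred1 (-0.10 to 0.06) and Spry1 (-0.11 to 0.17). Spred1 was also -0.01 with upper quartile scaling, library size only or log2 CPM. Without a filter on low values, which tests 25166 genes, 7 ERK targets, 1 gene of the Ras to ERK cascade and 0 receptors were called. At a mean of at least 50, which tests 7394 genes, 0 receptors, 0 p38 and JNK genes and 384 of all genes were called, and at a pseudocount of 5 the atypical DUSPs had 1. The cause of the other changes was not tested. The differences from early genes were chosen after seeing the data, and those of Dusp1 lay between -0.76 and -0.31 without single libraries.

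With the replicate number as a block, 0 members, 3 receptors and adaptors, 17 ERK targets and 814 of all genes were called. Samples of the same number correlated in their deviations from the group means by 0.023, 0.066 and 0.188, not all over 0.1, so they share only a number. Of these 3 pairs, not every sample correlated best with its own number. Depth limited Dusp2 (0 to 4 reads) and Dusp5 (6 to 33 reads).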

Other observations

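A pattern seen in the values and not tested concerns the spread among the Sirt6mKO libraries. All 6 analysed Sprouty and Spred genes (Spry1, Spry2, Spry4, Spred1, Spred2 and Spred3) were highest in Sirt6mKO replicate 2 among the Sirt6mKO libraries. Of the 12546 tested genes without ties, 32.6% had their highest Sirt6mKO value in that library. Spry2, for example, read 177 there against 129 and 147 in the other Sirt6mKO libraries, and Spry4 read 183 against 116 and 119. The same library was also the highest of the Sirt6mKO libraries in some markers of other cells: Thbs4 read 508 there against 14 and 191, Tnmd 19 against 1 and 13, Col1a1 1063 against 420 and 645, and Col1a2 1299 against 782 and 1162. Other markers of the same lists were not. In Sirt6mKO replicates 1 to 3 Col3a1 read 7236, 6685 and 8461, Dpt 960, 820 and 1074, Pdgfra 14, 22 and 38, and Scx 33, 27 and 24. The part of other cells in the pattern was not tested. Without that library the log2 fold change of Spry4 was -0.45, with an adjusted p of 0.18, against -0.24 with all libraries (limma-trend).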
